A study of Mus musculus with 8 samples.

Results

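Haematopoietic stem cells (HSCs) from the bone marrow of mice heterozygous for Mof were compared with HSCs from wild type mice, in single wells. The comparison asks what differs in the RNA of these cells when 1 copy of Mof is missing. It rests on 4 libraries, 2 of each genotype, which the labels give as wild type and as Mof -/+. Each library lists 2 runs of 96 barcodes, and the wells that belong to a library were taken as the run with the larger total outside the spike-in rows. A well was kept when it held at least 1000 transcripts outside the spike-ins. This left 231 wells of 384 such barcodes, out of 768 barcodes in the 4 libraries and 1536 in the series, in which 417 wells reached the same minimum by the same rule.

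The series sorted progenitors by surface markers, and for HSCs its design text gives the LSK gate (lineage-negative, Sca1-positive and Kit-positive cells) without CD34, Flt3 and CD48 and with CD150. Sorted cells were frozen, and RNA was read with CEL-Seq2, which primes at the poly(A) tail, adds a molecular identifier to every captured transcript and so counts transcript ends in each well. The labels give neither the age, sex and strain of the mice nor how the Mof allele was made. They also do not say whether the libraries of a genotype hold cells of different animals. Any p-value below is set against library-to-library spread alone, and that spread may be technical.

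MOF is the older name of KAT8, a lysine acetyltransferase that places acetyl groups on histone tails and works within a pair of complexes, MSL and NSL. The NSL complex is known at promoters of genes that every cell uses, and the MSL complex is known for raising transcription from the X chromosome in male flies. HSCs sit at the top of blood formation, divide rarely and are known for a low rate of protein synthesis. CPM below are a gene's transcripts scaled to the total of all kept wells of a library, and values of several libraries stand in the order of library 1, then library 2.

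At the minimum of 1000 transcripts the heterozygous libraries kept more wells, and their kept wells held more RNA counts. The wild type libraries kept 50 and 46 wells and the heterozygous libraries 68 and 67. The median kept well held 1601 and 1567 transcripts in the wild type libraries against 2923 and 2979 in the heterozygous libraries. At this minimum the genotypes did not overlap in either measure. Spike-in molecules, which are added to every well and do not come from the cell, moved with the transcripts: the median was 136.4 and 129.9 against 232.1 and 303.9. The median ratio of transcripts to spike-in transcripts was 12.8 and 14.5 in wild type and 13.02 and 9.43 in heterozygous libraries, which overlap (exact two-sided permutation test over libraries, p = 0.667). For the other measures of this paragraph the exact permutation test gave p = 0.333, the smallest that 2 libraries against 2 allow. After thinning of every well to 1000 transcripts, a well showed 571.7 and 577.8 genes on average in wild type and 633.8 and 620.9 in heterozygous libraries, and the median share of mitochondrially encoded transcripts was 13.9% and 16.4% against 13.8% and 13.4%. The lowest wells kept held 1004, 1012, 1001 and 1029 transcripts, and the highest wells not kept held 949.9, 959.5, 522.3 and 966.7 (wild type, then heterozygous). Wells from 500 to under 1000 transcripts numbered 12 and 23 in the wild type and 1 and 9 in the heterozygous libraries. The difference in kept wells thus depends on the minimum: at 500 it is smaller, and the genotypes are no longer separate.

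**Figure D1:**
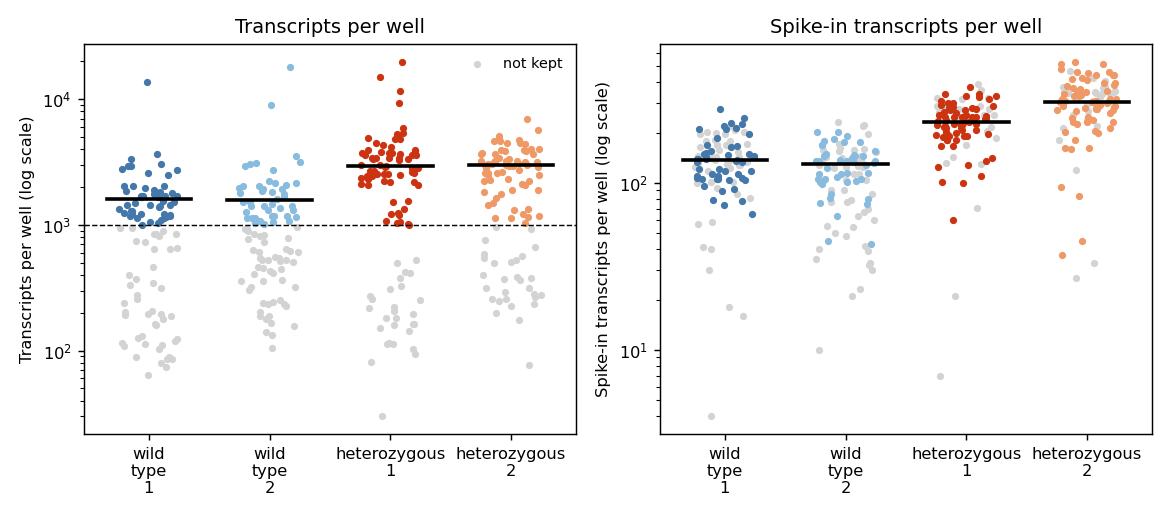
Transcripts (left) and spike-in transcripts (right) in each of the 96 wells of the 4 HSC libraries, both on a log axis; coloured points are kept wells, grey points are wells below the minimum of 1000 transcripts (dashed line), and bars are medians of kept wells. Medians of the heterozygous libraries (2923 and 2979 transcripts) lie above those of the wild type libraries (1601 and 1567), and spike-in medians lie higher as well.

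Depth and sharing of barcodes limit what follows. The kept wells of the wild type libraries held 99312 and 103080 transcripts together, and those of the heterozygous libraries 244300 and 200050. Library 1 of both genotypes uses the same 96 barcodes, of which 32 were kept in both, and library 2 of both genotypes uses the other 96, of which 30 were kept in both. Barcodes outside a library's own 96 held transcripts at 5.20% to 6.54% of the summed level in the 2 HSC libraries that own them. At such rates, transcripts carried over from the HSC library with the same barcodes would be 7.54% and 5.48% of the kept transcripts in wild type libraries. In heterozygous libraries they would be 2.17% and 2.68%. The progenitor libraries of the series use the same barcodes and were left out of this estimate. Genes with enough counts differed between the 2 wild type libraries with a chi-square per degree of freedom of 4.47 and between the 2 heterozygous libraries with 3.38. Counting error alone gives a value near 1, so within neither genotype was 1 library a copy of the other. Libraries of different genotypes were not compared in this way.

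Transcripts of stem cell genes were present in all 4 libraries. Hlf, a transcription factor that marks HSCs, gave 104 and 86 transcripts in the wild type and 170 and 170 in the heterozygous libraries, and was detected in 38 of 50, 33 of 46, 56 of 68 and 53 of 67 wells. Of the genes behind the sort gate, Cd48 had no transcript in any library, Ly6a (Sca1) was detected in 18, 22, 36 and 41 wells, and Slamf1 (CD150) was at 0 in wild type library 1 and gave 7, 9 and 13 transcripts in the other 3 libraries. Cd34 and Flt3, whose proteins the gate excludes, were detected in 11, 13, 23 and 28 and in 5, 2, 12 and 15 wells. Markers of other blood cells were at or near 0 for B cells (Ms4a1 at 0 in all 4 libraries, Cd79a with 1 transcript in all) and macrophages (Csf1r at 0).

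A few wells held many transcripts of other blood cells. Mature neutrophil transcripts summed to 5709 and 48.5 CPM in the wild type and 1183 and 2274 CPM in the heterozygous libraries, and in each of the heterozygous libraries 1 well held 89.3% and 85.3% of them. By at least 10 neutrophil or 50 globin transcripts, 5 and 1 wild type wells and 3 and 4 heterozygous wells were marked. Wells of over 8000 transcripts numbered 1 and 2 in the wild type and 4 and 0 in the heterozygous libraries. In each of these 7 wells the share of stem cell surface markers lay below the library's median, and the shares of erythroid progenitor and cell cycle genes above it.

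Kat8 itself was too scarce to check the genotype. It gave 1 and 2 transcripts in the wild type and 1 and 2 in the heterozygous libraries (chromosome 7, 127912516 to 127925837, GRCm38), so both genotypes stood at the 3 transcripts below which no fold is given. Of 13 genes listed for the MSL and NSL complexes, 7 had enough counts to be tested and none passed. Ogt, an NSL subunit that attaches N-acetylglucosamine to proteins, stood at 60.5 and 19.4 CPM in the wild type and 86.0 and 90.0 CPM in the heterozygous libraries (log2 fold change 1.13 ± 0.68 SE, edgeR adjusted p = 0.670). Hcfc1, a scaffold of the NSL complex, went the other way, at 262.0 and 485 against 246 and 260.1 CPM (-0.57 ± 0.40, adjusted p = 0.733). Msl1, the scaffold of the MSL complex, stood at 181 and 291 against 299.05 and 305 CPM (0.35). The median log2 fold change of the 7 members was 0.23, and it changed sign when heterozygous library 2 was left out (-0.13) or without the wells marked as other cells (-0.11).

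No gene passed the test across all genes. Of 3010 genes with enough counts, 0 (0%) had an adjusted p under 0.05 by edgeR's quasi-likelihood test with Benjamini-Hochberg adjustment, 253 (8.41%) had an unadjusted p under 0.05, and of these 147 (4.88%) were higher and 106 (3.52%) lower in the heterozygous libraries. By DESeq2 3 genes passed, all higher in the heterozygous libraries: Rps6, and Gm17541 and Gm3839, which are predicted models. limma-voom called 0. The wording "apart" below means that both libraries of a genotype lay above both of the other in CPM, and it is not a test. In such sums, fewer wells with an RNA and less of it per well cannot be told apart. Over all genes tested, 623 (20.7%) were apart and higher and 532 (17.7%) apart and lower in the heterozygous libraries, with a median log2 fold change of 0.01. The common biological coefficient of variation was 0.279.

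Among the 10 genes of smallest p that were apart and higher, 4 were ribosomal proteins. Rps6, a protein of the small ribosomal subunit, had the smallest p of these, with 1239 and 893 CPM in the wild type and 2683 and 2996 CPM in the heterozygous libraries (log2 fold change 1.42 ± 0.31, adjusted p = 0.353). B2m, the light chain shared by MHC class I molecules, stood at 937 and 650.4 CPM against 1581 and 2516 CPM (1.38 ± 0.36, adjusted p = 0.373). Tmsb4x, thymosin beta, which binds actin monomers, varied more between libraries of a genotype, at 212 and 48.5 against 373 and 825 CPM (2.22 ± 0.57, adjusted p = 0.373). Txnip, which binds and inhibits thioredoxin, stood at 343 and 194 against 565 and 1000.4 CPM (1.55 ± 0.43). Eef1a1, the factor that brings aminoacyl-tRNA to the ribosome, stood at 1451 and 476 against 1991 and 4272 CPM (1.72 ± 0.47). In each of these genes both heterozygous libraries lay above both wild type libraries, and wild type library 2 was the lowest. Pnrc2, a coactivator of nuclear receptors that also takes part in mRNA decapping, rested on 3 and 1 against 38 and 27 transcripts, and C1rl, a complement-like protease, on 1 and 0 against 19 and 24.

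The 10 genes of smallest p that were apart and lower were mostly scarce, and several rested on few wells. Zfp212, a zinc finger gene, gave 10 and 30 transcripts in the wild type and 8 and 5 in the heterozygous libraries (-2.73 ± 0.61, adjusted p = 0.353). Lig3, a DNA ligase of single-strand break repair, gave 12 and 10 against 4 and 3, and Ccdc25 gave 8 and 12 against 4 and 0. Hspe1, the mitochondrial co-chaperonin, was the most abundant of the 10, at 1199 and 1252 CPM against 664 and 440.2 CPM (-1.16 ± 0.34, adjusted p = 0.419). In the wild type libraries 1 well gave 58 of its 119 and 65 of its 129 transcripts. The same held for Hras, a GTPase of growth factor signalling, where 1 well gave 13 of 22 and 17 of 31 wild type transcripts, against 21 and 2 transcripts in the heterozygous libraries. Epn1, Add2, Atad3a, Zfp771 and Mrpl45 completed the 10, with log2 fold changes from -1.32 to -2.59.

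**Figure D2:**
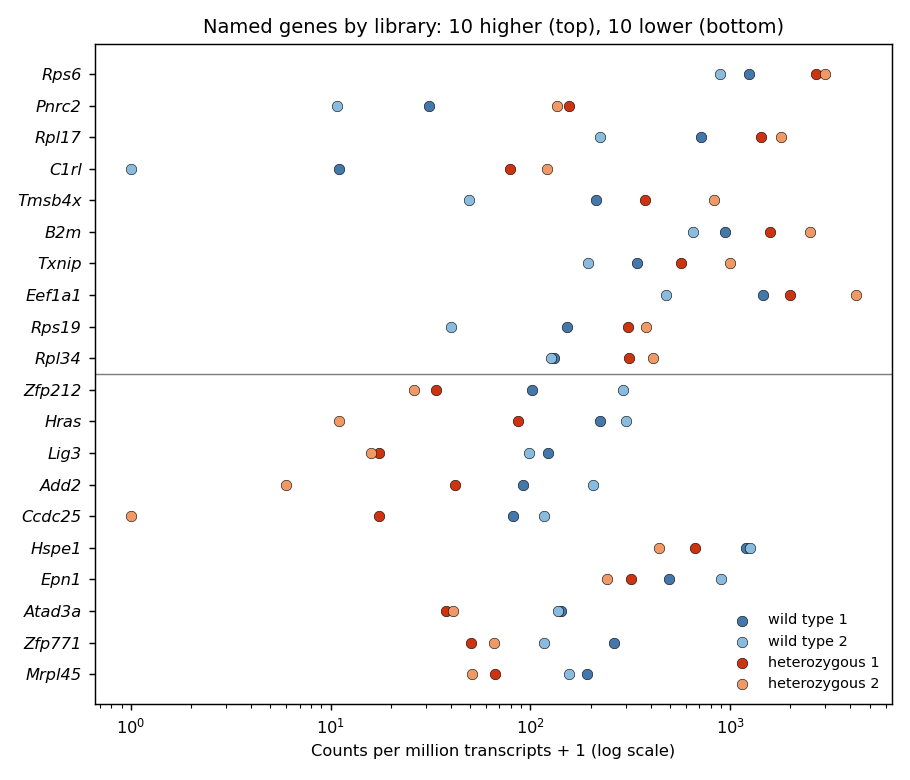
Level of the 20 genes of smallest p that were apart, in each of the 4 libraries, as CPM + 1 on a log axis; the 10 above the line were higher and the 10 below it lower in both heterozygous libraries. Levels differ between the 2 wild type libraries by up to several-fold in Rpl17, Tmsb4x and Rps19, and Rps6 and Rpl34 have close values within each genotype.

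Genes of cytosolic ribosomal proteins were mostly higher in the heterozygous libraries. Of 67 tested members, 33 were apart and higher in the heterozygous libraries (49.3%, against 20.7% of all genes) and 2 were apart and lower (2.99%, against 17.7%). None passed after adjustment, 18 were higher and 0 lower at an unadjusted p under 0.05, and the median log2 fold change was 0.31, against 0.01 over all genes. Rpl17, of the large subunit, stood at 715 and 223 against 1422 and 1796 CPM (1.79 ± 0.45), and Rps19, which is mutated in Diamond-Blackfan anaemia, at 151 and 38.8 against 307 and 380.2 CPM (1.86). Rpl34 stood at 131 and 126.2 against 311 and 410.2 CPM (1.48 ± 0.41), and Rpl39 at 413 and 184 against 598 and 1291 CPM (1.67). The spread between libraries was small in Rpl34 and Rpl12 (746 and 679.5 against 1360.05 and 1446 CPM) and large in the others. Rpl4 and Rps14 were the 2 members apart and lower, with -0.40 and -0.28.

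Differences were larger in the scarcer ribosomal protein genes, a split chosen after the values were seen. Of 28 members with a mean under 1000 CPM, 18 were apart and higher (64.3%, against 20.4% of all genes at that level) and 0 apart and lower, with a median of 0.76. Of 39 members at 1000 CPM or above, 15 were apart and higher (38.5%, against 30.8% of all genes at that level) and 2 apart and lower (5.13%, against 14.3%), with a median of 0.12. Over all genes tested the medians of the same classes were 0.01 and 0.06. The list's median was positive under every one of the 17 alternatives that refit it, from 0.14 without wild type library 2 to 0.55 without wild type library 1. Without the wells of over 8000 transcripts 33 of 66 members were apart and higher (50%, against 22.2% of all genes) and 3 lower (4.55%, against 17.9%). Without the wells marked as other cells these were 31 of 66 (47.0%, against 21.5%) and 4 (6.06%, against 18.6%). More members were apart and lower with each well thinned to 1000 transcripts, where these were 28 of 63 (44.4%, against 20.2%) and 8 (12.7%, against 19.4%). Without each gene's highest well they were 27 of 65 (41.5%, against 20.4%) and 6 (9.23%, against 18.5%).

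In single wells the share of transcripts from ribosomal proteins had a median of 10.3% and 9.29% in the wild type and 10.96% and 10.6% in the heterozygous libraries, with wells from 5.6% to 20.4%, 3.74% to 12.3%, 6.20% to 18.9% and 3.01% to 17.3%. The genotypes' medians were apart, but the ranges of wells overlapped, with that of wild type library 2 ending lowest, at 12.3%. Beside the ribosomal proteins, nuclear RNAs that are often read as a sign of RNA quality were higher as well: Malat1 stood at 4987 and 3242 against 6735 and 7028 CPM (0.74, adjusted p = 0.520), and Neat1 and Kcnq1ot1, the other 2 tested members of that list, were also apart and higher, with a list median of 0.74. Kcnq1ot1 is antisense to Kcnq1, and whether strand was used in counting is not given in the sources used here. Their part in the result was not tested.

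**Figure D3:**
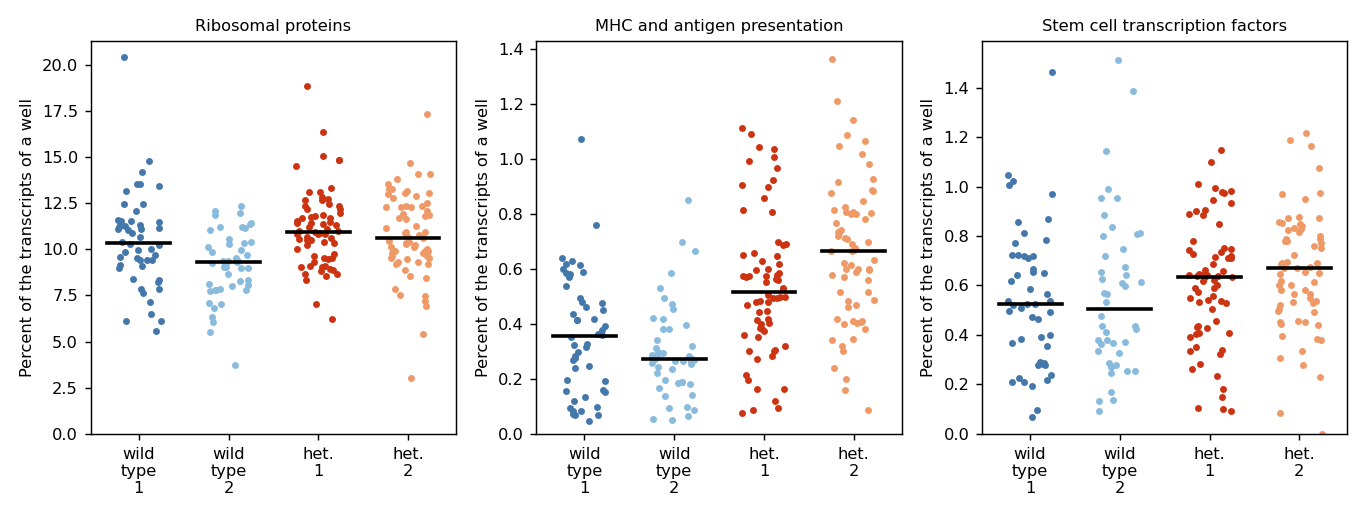
Percent of a well's transcripts that came from 3 gene lists, for every kept well of the 4 libraries; bars are medians. Median shares of ribosomal proteins lie at 10.3% and 9.29% in wild type and 10.96% and 10.6% in heterozygous libraries. The ranges of wells overlap, with wild type library 2 ending at 12.3% and the other libraries between 17.3% and 20.4%. For MHC genes the medians lie further apart.

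Many ribosomal protein mRNAs begin with a C followed by an unbroken run of C and T, the terminal oligopyrimidine tract through which growth signals are known to set their translation. Start sites were taken from RefSeq (GRCm38.p6), whose annotated start need not be the one used in these cells. The windows below run from 40 bases before the annotated start to 10 bases from it, and capitals mark the run of C and T that begins at the first transcribed base. Rps6 and Rpl28 are shown as ribosomal protein genes with such a tract that were apart and higher, B2m as a gene apart and higher with no tract that starts with C, and Hspe1 as a gene apart and lower whose first base is neither C nor T.
Rps6 chr4:86857358-86857407, minus strand: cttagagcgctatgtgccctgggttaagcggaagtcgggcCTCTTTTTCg
Rpl28 chr7:4792925-4792974, plus strand: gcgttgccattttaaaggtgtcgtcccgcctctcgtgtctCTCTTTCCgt
B2m chr2:122147647-122147696, plus strand: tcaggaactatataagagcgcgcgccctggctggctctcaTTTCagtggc
Hspe1 chr1:55088108-55088157, plus strand: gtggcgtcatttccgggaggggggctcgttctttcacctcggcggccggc

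A run of at least 5 that starts with C at the annotated start, on the transcribed strand, was found in 10 of 48 tested ribosomal protein genes with a window (20.8%), 75 of 2306 tested genes (3.25%) and 813 of 27025 RefSeq genes (3.01%). Of the 10 ribosomal protein genes with the run 7 were apart and higher, with a median log2 fold change of 0.76, and of the 38 without it 16 were, with a median of 0.26. Over all tested genes with the run, 20 of 75 were apart and higher (26.7%) and 18 apart and lower, with a median of -0.01. Over the 2231 tested genes with a window and no such run, 19.6% were apart and higher and 17.5% apart and lower. Ribosomal protein genes without the run, at 42.1% apart and higher, thus also lay above the share of all genes without it. Rps6 and Rpl28 thus share a tract, while Rpl34 and Rpl39, also apart and higher, have no run of at least 5 that starts with C at their annotated starts. Rpl28 stood at 1078 and 990.2 against 1827 and 1536 CPM (0.70).

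Ribosomal protein genes have many processed copies in the mouse genome, so reads near their 3′ ends can be split between near-identical genes. A gene was counted as having a copy when its own last 300 bases matched a transcript of another gene. The match could lie anywhere in that transcript, of any gene type, at 95% identity or more over at least 100 bases. Of the 67 tested members, 36 had such a copy, against 280 of 2932 tested genes with a transcript (9.55%). The median log2 fold change was 0.38 in these 36 and 0.26 in the 31 without such a copy, of which 17 were apart and higher and 1 apart and lower. Over all genes the medians were 0.16 with and 0.00 without a copy, and of those without 19.9% were apart and higher and 18.4% apart and lower. Rps6, Rpl17, Rpl34 and Rpl39 belong to the members with copies and Rps19, Rpl12, Rps24 and Rpl28 to those without, so values of the former are uncertain in which gene they belong to.

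Among genes with near-identical copies, 2 predicted models were singled out after their values were seen. Gm17541 (chromosome 12, 4689402 to 4689926), a processed pseudogene, had the smallest p of all genes: 21 and 11 transcripts in the wild type against 214 and 133 in the heterozygous libraries (2.27 ± 0.42, adjusted p = 0.260). It was detected in 20.7% and 10.6% of wild type wells and in 56.6% and 46.2% of heterozygous wells at equal depth. Gm3839, whose end matches Gapdh at 99.0%, stood at 181 and 116 against 512 and 655 CPM (1.97), and Gapdh at 474 and 913 against 1024 and 795 CPM (0.38). With all 8 libraries of the series in the fit, Gm17541 was the 1 gene that passed.

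Translation factors showed smaller differences. Of 32 tested members 6 were apart and higher (18.8%, against 20.7% of all genes) and 3 apart and lower (9.38%, against 17.7%), and the median was 0.14. Besides Eef1a1, the subunits Eif3e (101 and 48.5 against 160 and 250.1 CPM, 1.45) and Eif3m (80.6 and 29.1 against 127 and 125 CPM, 1.20) of initiation factor eIF3 and Pabpc1, which binds poly(A) tails (1874 and 1281 against 2331 and 2576 CPM, 0.64), were apart and higher. Genes of ribosome biogenesis and MYC had 4 of 24 apart and higher, 4 apart and lower and a median of -0.16. These were 16.7% each, near the 20.7% and 17.7% of all genes.

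MHC and antigen presentation genes had the highest median among the lists with at least 3 tested members. MHC class I molecules present peptides on nearly all cells, and class II genes are known at low levels in HSCs. Of 9 tested genes 7 were apart and higher in the heterozygous libraries (77.8%, against 20.7% of all genes). None was apart and lower (against 17.7% of all genes), the median log2 fold change was 0.91, and none passed the test. H2-D1, a class I heavy chain, stood at 1411 and 990.2 CPM in the wild type and 1762 and 2356 CPM in the heterozygous libraries (0.79 ± 0.33, adjusted p = 0.572). Cd74, the invariant chain of class II, was scarce, with 3 and 3 transcripts against 33 and 26 (2.13 ± 0.60, adjusted p = 0.373), and 1 well gave 13 of the 33. Psmb8, a subunit of the immunoproteasome, stood at 60.5 and 29.1 against 107 and 95.04 CPM (1.16), and H2-Ab1 and Tap1 were also apart and higher (1.13 and 0.91). Tapbp (0.01) and H2-T23 (-0.22) overlapped.

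The share of a well's transcripts from MHC genes had a median of 0.355% and 0.271% in wild type and 0.516% and 0.666% in heterozygous libraries. B cell transcripts, which could bring class II RNA, summed to 50.4 and 58.2 CPM in the wild type and 180.1 and 200 CPM in the heterozygous libraries, with 12, 11, 11 and 8 of 15 measured members at 0. That list contains Cd74, and without it the 14 other measured members gave 2 and 3 transcripts in the wild type and 11 and 14 in the heterozygous libraries. Of its defining members Ms4a1 was at 0 in all 4 libraries and Cd79a gave 1 transcript. The part of B cells in the result was not tested. The MHC median stayed positive in every alternative that refit it, from 0.42 with each well thinned to 1000 transcripts, which left 4 members, to 1.279 without wild type library 1. Interferon response genes, which often move with MHC class I, had a median of -0.05. Of 11 tested members 3 were apart and higher and 3 apart and lower (27.3% each, against 20.7% and 17.7% of all genes).

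Stem cell transcription factors were more often apart and higher than lower. Of 21 tested members 8 were apart and higher (38.1%, against 20.7% of all genes) and 1 apart and lower (4.76%, against 17.7%), with a median of 0.41. Zfp36l2, an RNA-binding protein placed on this list for its need in HSC maintenance, stood at 202 and 184 CPM in the wild type and 369 and 555 CPM in the heterozygous libraries (1.26 ± 0.40, adjusted p = 0.450). Gata2, required for HSC survival, had close values within each genotype, at 121 and 116 against 258 and 260.1 CPM (1.12 ± 0.42, adjusted p = 0.521). Lmo2, a bridge between GATA and TAL1 factors, stood at 302 and 223 against 356 and 800.3 CPM (1.15), Erg at 222 and 175 against 352 and 340.1 CPM (0.80), and Myb at 90.7 and 146 against 180.2 and 210.1 CPM (0.71). Mecom (0.62) was apart and higher as well, whereas Hlf (-0.28), Meis1 (0.43) and Runx1 (0.32) overlapped. Gfi1b, a repressor of erythroid and megakaryocyte development, was the 1 member apart and lower, at 101 and 116 against 86.0 and 10.004 CPM (-1.13, adjusted p = 0.707), and 1 well gave 9 of its 10 transcripts in wild type library 1. The list's median fell to 0.06 when heterozygous library 2 was left out and was 0.77 without heterozygous library 1.

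Genes around RUNX1 and GFI1B were mixed, with 2 of 13 apart and higher, 2 apart and lower and a median of -0.17. These were 15.4% each, against 20.7% and 17.7% of all genes. The list's median was positive in several alternatives, among them each well thinned (0.13), all 8 libraries (0.10), no low-count filter (0.18) and heterozygous library 1 left out (0.13). Zfpm1, the cofactor FOG of GATA factors, stood at 222 and 320.4 against 197 and 110.04 CPM (-0.82). Stem cell surface genes had 3 of 13 apart and higher (23.1%, near the 20.7% of all genes), 1 apart and lower (7.69%, against 17.7%) and a median of 0.26. Kit, the stem cell factor receptor, stood at 171 and 165 against 213 and 520.2 CPM (1.13 ± 0.48, adjusted p = 0.572), with heterozygous library 2 far above the other 3. Tie1, an endothelial and HSC receptor, was apart and higher (0.57), and Ifitm1, an interferon-induced membrane protein, was apart and lower, at 1693 and 1883 against 1004 and 1341 CPM (-0.60 ± 0.32, adjusted p = 0.633). The list's median was -0.21 without heterozygous library 2 and 0.65 without heterozygous library 1.

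Immediate early genes, which respond within minutes to signals and to cell handling, had a median of 0.35. Of 13 tested members 7 were apart and higher (53.85%, against 20.7% of all genes) and 2 apart and lower (15.4%, against 17.7%). Dusp2, a phosphatase of MAP kinases, stood at 80.6 and 107 against 205 and 285 CPM (1.38 ± 0.46, adjusted p = 0.491), Nfkbia, an inhibitor of NF-kappaB, at 60.5 and 67.95 against 90.1 and 235 CPM (1.32), and Jun at 212 and 214 against 274.5 and 420.2 CPM (0.71). The list's median was 0.09 without the wells marked as other cells and 0.07 without heterozygous library 2. Heat shock and folding genes were divided, with 5 of 17 apart and higher (29.4%, against 20.7% of all genes), 4 apart and lower (23.5%, against 17.7%) and a median of 0.02. Hsp90b1, a chaperone of the endoplasmic reticulum, was higher, at 90.7 and 107 against 246 and 280.1 CPM (1.40 ± 0.44, adjusted p = 0.436), and the cytosolic chaperones Hspa8 (373 and 427 against 249.9 and 190.1 CPM, -0.86) and Dnaja1 (-0.72) were lower.

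Nuclear genes of the respiratory chain differed little as a group. Of 55 tested members 12 were apart and lower (21.8%, against 17.7% of all genes) and 6 apart and higher (10.9%, against 20.7%), with a median of -0.09, and 7 were lower and 1 higher at an unadjusted p under 0.05. Uqcrq, of complex III, stood at 413 and 408 CPM in the wild type and 242 and 150.1 CPM in the heterozygous libraries (-1.07 ± 0.38, adjusted p = 0.511), and Cycs, cytochrome c, at 262.0 and 583 against 254 and 120.05 CPM (-1.18 ± 0.46, adjusted p = 0.533). Cox7c, a small subunit of complex IV, was the member that went furthest the other way, at 131 and 9.71 against 221 and 250.1 CPM (1.75 ± 0.64, adjusted p = 0.511). Its low wild type value came from library 2, where it gave 1 transcript. Without the wells of over 8000 transcripts 11 of 45 members were apart and higher (24.4%, against 22.2% of all genes) and 12 apart and lower (26.7%, against 17.9%), with a median of -0.04. Without the wells marked as other cells these were 10 (21.3%, against 21.5% of all genes) and 11 of 47 (23.4%, against 18.6%), with a median of 0.03. The list's median was 0.16 without heterozygous library 2. In the detection shares described below, 10 of 52 members were apart and higher and 10 apart and lower, against 22.6% and 14.8% of all genes. The median difference was 0.892 percentage points.

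Mitochondrially encoded RNAs moved in both directions. The messenger RNAs mt-Co1 (5360.04 and 4883 against 8730 and 10069 CPM, 0.88 ± 0.25, adjusted p = 0.379), mt-Co2 (0.74) and mt-Atp6 (0.59) were apart and higher. The ribosomal RNA mt-Rnr1 was apart and lower (22690 and 39132 against 19458 and 21829 CPM, -0.58 ± 0.26, adjusted p = 0.581), and in wild type library 2 a single well gave 1807 of its 4031 transcripts. The list's median was -0.04.

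Glycolysis genes had 4 of 9 tested members apart and lower (44.4%, against 17.7% of all genes) and 1 apart and higher (11.1%, against 20.7%), with a median of -0.43. Hk1, hexokinase, stood at 312 and 359 against 152 and 210.1 CPM (-0.89 ± 0.39, adjusted p = 0.578), and Gpi1 (-0.69) and Pkm (-0.57) were apart and lower too. Slc2a3, a glucose transporter, was apart and higher (1.34). Of 27 proteasome genes 5 were apart and lower (18.5%, near the 17.7% of all genes) and 3 apart and higher (11.1%, against 20.7%). Their median was -0.27, and 0.02 without wild type library 2. Psmb10, an immunoproteasome subunit that did not follow Psmb8, stood at 191 and 223 against 94.2 and 110.04 CPM (-1.02 ± 0.43, adjusted p = 0.572).

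In erythroid and cell cycle genes the libraries of a genotype differed widely. Globin and late erythroid genes had the lowest median, -1.33, with 0 of 6 apart and higher (against 20.7% of all genes) and 2 apart and lower (33.3%, against 17.7%). Hba-a1, alpha globin, stood at 9461 and 1097 CPM in the wild type and 1163 and 560.2 CPM in the heterozygous libraries, and 1 well of wild type library 1 gave 783 of its 939 transcripts. Hbb-bs, beta globin, gave 509 transcripts in wild type library 1, of which 465 came from 1 well, and 9, 66 and 18 in the other libraries. Its log2 fold change was -3.84 in all libraries and 0.98 without wild type library 1. With each gene's highest well left out in each library the list's median was 0.05. Erythroid progenitor genes had a median of -0.40, with 1 of 12 apart on each side (8.33% each, below the 20.7% and 17.7% of all genes). Car2, carbonic anhydrase, was apart and higher (605 and 747.5 against 1028 and 825 CPM, 0.45). Cell cycle genes had a median of -0.39, also with 1 of 20 apart on each side (5% each, below the 20.7% and 17.7% of all genes). Top2a, the topoisomerase of dividing cells, stood at 131 and 466 against 274.5 and 50.02 CPM, so that libraries of both genotypes differed more within than between. Without heterozygous library 1, which held 4 of the 7 wells of over 8000 transcripts, the median was -2.796 for erythroid progenitor and -1.39 for cell cycle genes. Both medians turned without heterozygous library 2 (0.15 and 0.12) and without wild type library 2 (0.11 and 0.25). That of erythroid progenitor genes was also positive without each gene's highest well (0.19) and without the wells marked as other cells (0.13).

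Megakaryocyte and platelet genes had 3 of 8 members apart and higher (37.5%, against 20.7% of all genes), none apart and lower (against 17.7%) and a median of 0.17. The list's median was -0.03 without heterozygous library 2. Pf4, a platelet chemokine, gave 6 and 2 transcripts in the wild type and 65 and 23 in the heterozygous libraries (2.24 ± 0.63, adjusted p = 0.373). A single well gave 27 of the 65.

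**Figure D4:**
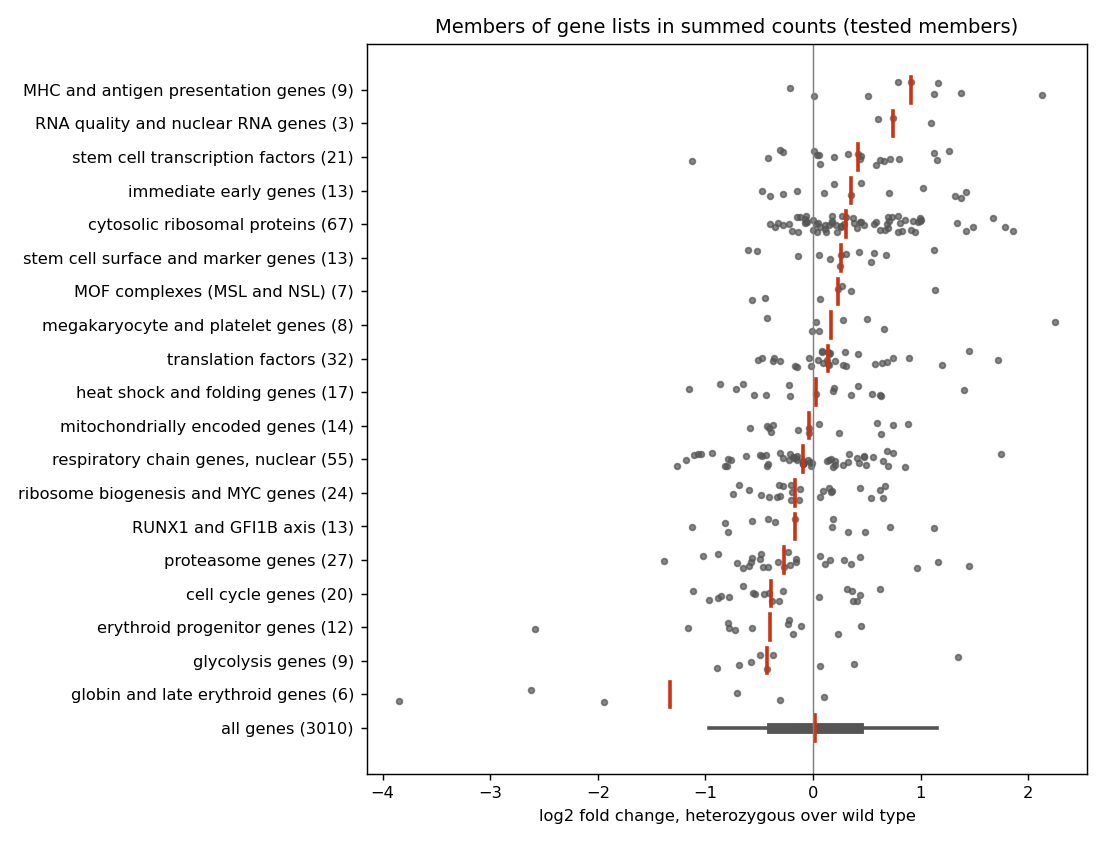
Log2 fold change (heterozygous over wild type, summed counts) of every tested member of 19 gene lists, with the number of members in brackets; vertical bars are medians, and for all 3010 genes the thick and thin lines span the quartiles and the 5th to 95th percentiles. The medians run from -1.33 (globin and late erythroid) to 0.91 (MHC and antigen presentation), and members of most lists lie on both sides of 0.

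The second measure counted wells instead of transcripts, so that a single large well weighs no more than any other. Each well was reduced to 1000 transcripts by expectation, and the share of a library's kept wells that would then show the gene was compared. Of 3227 genes with a mean share of at least 5%, 0 (0%) passed by limma with Benjamini-Hochberg adjustment, 225 (6.97%) had an unadjusted p under 0.05, 730 (22.6%) were apart and higher and 479 (14.8%) apart and lower in the heterozygous libraries. The larger number on the higher side stood beside the larger number of genes per well at equal depth given above.

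Many ribosomal protein genes were apart and higher in this measure too. Of 66 tested members 32 were apart and higher (against 22.6% of all genes) and 3 apart and lower (against 14.8%). The median difference was 7.28 percentage points, against 0.409 over all genes. Rpl17 was detected in 49.1% and 24.6% of wild type wells and 71.2% and 82.0% of heterozygous wells (39.7 points, adjusted p = 0.290). Rpl39 was detected in 32.5% and 12.6% against 52.0% and 68.3% (37.6 points), and Rps6 in 69.2% and 62.9% against 93.1% and 91.3% (26.2 points, adjusted p = 0.211). Before thinning the shares of Rps6 were 84.0% and 78.3% against 100% and 97.01%. Rps24 was detected in 27.8% and 26.0% against 35.6% and 66.0%, with most of the difference in heterozygous library 2. Wild type library 2 gave the lowest share in Rpl17, Rpl39 and Rps6.

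Genes outside the ribosome on this side were Eef1a1 (69.4% and 41.9% against 81.3% and 96.3%), Tmsb4x (19.4% and 6.73% against 33.6% and 52.1%), Txnip (33.0% and 20.3% against 48.3% and 62.2%) and B2m (61.6% and 56.0% against 79.8% and 89.6%, 25.9 points, adjusted p = 0.290). All were also among the genes of smallest p in summed counts. Among lists, MHC genes had 7 of 10 members apart and higher, 1 apart and lower and a median difference of 5.12 points, and stem cell transcription factors 9 of 23, 3 and 2.41 points. Over all genes these were 22.6%, 14.8% and 0.409 points.

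On the lower side the differences were smaller and lay in other genes than in the sums, apart from Hspe1. Smc1a, a subunit of cohesin, was detected in 41.4% and 61.9% of wild type wells and in 41.4% and 30.2% of heterozygous wells (-15.8 points, adjusted p = 0.737). Tpm3, a tropomyosin, was detected in 53.9% and 64.2% against 44.7% and 43.4% (-15.0 points). Cox7a2l, which joins respiratory complexes into supercomplexes, was detected in 49.4% and 70.1% against 44.7% and 46.1% (-14.4 points), and Hspe1 in 42.0% and 50.1% against 34.9% and 30.3% (-13.4 points, adjusted p = 0.737). Snhg1, Cox8a, Pxn and Stra13 differed by -12.3 to -13.0 points. Without thinning, Tpm3, Cox7a2l, Cox8a and Hspe1 were detected in more heterozygous than wild type wells, by 5.7, 1.75, 1.26 and 1.38 points on average.

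**Figure D5:**
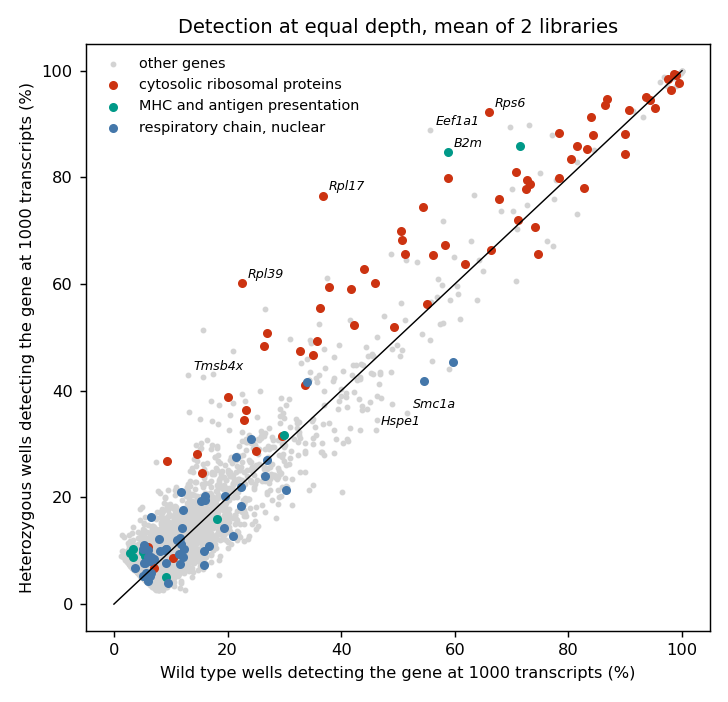
Share of wells expected to show a gene at 1000 transcripts per well, as the mean of the 2 wild type libraries (horizontal axis) and of the 2 heterozygous libraries (vertical axis), in percent; the line marks equal shares. Ribosomal protein genes lie mostly on or above the line between 20% and 90%, with Rpl17 and Rpl39 furthest from it, and nuclear genes of the respiratory chain lie on both sides.

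The 8 other lists with at least 3 tested members had medians from -0.45 to 0.44. Of their 83 tested members 16 were apart and higher and 13 apart and lower, against 20.7% and 17.7% of all genes. They cover other histone acetyltransferases, histone deacetylases, mature and progenitor neutrophil genes, interferon response, cell cycle brakes, mitochondrial ribosomal proteins and cytoskeleton genes. A further 5 lists, for monocytes, B cells, T and NK cells, mast cells and stromal cells, had fewer than 3 tested members.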

How the data were processed

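The deposited values are estimated counts of transcripts per gene and well, and per the submitters' processing notes the authors used BWA 0.6.2-r126 and the mm10 build. The values deviate by at most 3.6e-12 from molecular identifiers corrected for collisions among 4096 possible ones, and were rounded per well. Identifiers limit double counting of amplified reads, but precision rests on 2 libraries per genotype.

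Rows naming no gene held 0% of counts, and the 70 spike-in rows were left out of sums. Kept wells were summed per library and tested with edgeR 4.0.16 (quasi-likelihood, TMM scaling, filterByExpr) in R 4.3.3. The SE is the log2 fold change divided by the square root of F. Detection shares were expected at 1000 transcripts per well, arcsine-transformed and tested with limma 3.58.1. p-values were adjusted by Benjamini-Hochberg over all genes tested, at 0.05. Alternatives were other scalings, filters, well minimums, DESeq2 1.42.0, limma-voom, a replicate block and each library left out. Scripts (Python 3.11.15, scipy 1.17.1) were tested on simulated data. Copies were found with BLAST 2.17.0 on GENCODE transcripts (GRCm38), where 2932 of the 3010 tested genes matched by name. Doublets were not called, as each well received a sorted cell.

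The members, the gene lists and the choice to fit these 4 libraries alone were made with earlier results of these data known. Named genes are the 10 of smallest p on each side with at least 20 CPM and no overlap, the 8 of largest difference in share on each side, and up to 4 per list by p, without predicted models. Of 32 lists, the 19 described were picked after values were seen, and so were the examples from them and Mecom, Hlf, Meis1, Runx1, H2-Ab1, Tap1, Tapbp, H2-T23, Rpl4, Rps14, Rpl12, Rpl28 and Gapdh. Alternatives on carry-over, on wells of over 8000 transcripts and with crossed numbers were also chosen after seeing the data, as were the classes by level and by C and T run. Some genes are not reported here.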

Additional observations from a re-analysis of the deposited data

Results flagged for a closer look

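Barcodes outside a library's own 96 held signal that the comparisons do not use. They held 13.6% and 13.1% of the transcripts of wild type libraries 1 and 2, and 8.12% and 8.89% of those of heterozygous libraries 1 and 2. Over the 96 barcodes these totals correlated with the summed totals of the 2 HSC libraries that own the barcodes, with Pearson's r of 0.694 and 0.717 in the wild type and 0.739 and 0.73 in the heterozygous libraries. This is a description of barcodes that share a plate layout, given without a p. Kept wells with an estimated carry-over of 20% or more numbered 3, 2, 1 and 1. Without them 0 genes passed in summed counts. Of 67 ribosomal protein genes 31 were then apart and higher (46.3%, against 21.4% of all genes) and 3 apart and lower (4.48%, against 17.75%).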

How the results depend on the processing

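Of 20 alternatives for the summed counts, 11 gave 0 calls. DESeq2 called 3 genes, the fit to all 8 libraries 1, and the fit with no low-count filter 19, among them genes with single large wells. Leaving out each library gave 8 to 44 calls (8 without heterozygous library 2, 16 without wild type library 2, 29 without heterozygous library 1 and 44 without wild type library 1), with the lone library assumed to vary like the other genotype's. In detection shares 9 of 13 alternatives gave 0 calls, the untransformed share 1 (Rps6), and leaving out each library 0 to 192 (44 without wild type library 2, 192 without wild type library 1).

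With the library number as a replicate block, 5 genes passed in summed counts (Hras, Hba-a1, Gm17541, Hbb-bs and Zfp212) and 15 in shares. The library number coincides with the run of barcodes used, and differences between libraries 1 and 2 correlated between genotypes at -0.192 over 3010 genes. With only 2 numbers no pairing is established. With the numbers crossed 51 genes passed. Under the replicate block the megakaryocyte median was 0.20 and the MHC median 0.97.

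Of 319 list medians 236 stayed within 1 SD, and the others follow, as log2 fold changes. For RLE scaling the megakaryocyte median was 0.14. With all 8 libraries medians were 0.078 for MOF complexes, 0.10 for RUNX1 and GFI1B, 0.50 for megakaryocyte, 1.10 for MHC, 0.72 for immediate early genes and 0.073 for translation factors. With all 96 wells they were 0.17 for stem cell factors, 0.061 for megakaryocyte, 0.74 for MHC and 0.20 for translation factors. At 2000 transcripts or more they were 1.01 for surface genes, 0.84 for stem cell factors, 0.62 for megakaryocyte, 1.11 for MHC, 0.59 for immediate early, -0.37 for respiratory, -0.44 for ribosome biogenesis, -0.55 for proteasome and 1.24 for nuclear RNA genes. With carry-over subtracted megakaryocyte and MHC medians were 0.20 and 0.98. Without each gene's highest well they were 0.11 and 0.69, and 0.048 for globin. After thinning they were 0.059 and 0.42, with 0.13 for RUNX1 and GFI1B and 0.26 for translation factors. With no low-count filter medians were 0.073 for MOF complexes, 0.49 for surface genes, 0.18 for RUNX1 and GFI1B, 0.74 for megakaryocyte, 1.155 for MHC, 0.70 for immediate early and -0.12 for glycolysis genes. Without the wells of over 8000 transcripts they were -2.625 for globin, -0.021 for megakaryocyte and 0.83 for MHC. Without other cell types they were -0.11 for MOF complexes, 0.083 for megakaryocyte, 0.86 for MHC, 0.086 for immediate early and -0.61 for glycolysis genes. Without wells over the carry-over limit they were -0.36 for globin and 0.86 for MHC. The cause of these changes was not tested.

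Leaving out each library gave medians from -0.13 to 0.19 for MOF complexes, -0.21 to 0.65 for surface genes, 0.061 to 0.77 for stem cell factors, -0.19 to 0.13 for RUNX1 and GFI1B, -2.80 to 0.15 for erythroid progenitor, -1.58 to -0.24 for globin, -0.025 to 0.59 for megakaryocyte and 0.71 to 1.28 for MHC genes. It gave 0.067 to 0.90 for immediate early, -1.39 to 0.25 for cell cycle, -0.69 to -0.11 for glycolysis, -0.17 to 0.16 for mitochondrially encoded, 0.14 to 0.55 for ribosomal protein, 0.055 to 0.25 for translation, -0.40 to -0.052 for ribosome biogenesis and -0.56 to 0.023 for proteasome genes.

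For 89 genes followed over 1830 pairs of gene and alternative, 1721 kept direction and side, 95 were past the threshold and 14 turned. At 2000 transcripts or more Ifitm1 was 0.27 and Hlf 0.95. Hbb-bt was 0.13 without its highest wells, 0.41 without other cell types and 0.2955 without wells over the carry-over limit. Leaving out each library gave -0.024 to 0.72 for Msl1, -7.81 to 0.68 for Ermap, -4.81 to 0.98 for Hbb-bs, -2.46 to 0.33 for Top2a and -0.081 to 0.93 for Gapdh. Unthinned shares turned for Tpm3 (5.7 points), Cox7a2l (1.75), Hspe1 (1.38) and Cox8a (1.26).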
